A study of Mus musculus with 6 samples.

Results

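The genes Gm266, Dennd2d and Lgmn are 3 loci that the study used as examples of RBPJ binding in Beko cells, and the accessible chromatin around them was described here from ATAC-Seq. ATAC-Seq inserts sequencing adapters into open DNA with a transposase, so that intervals with many reads (peaks) mark accessible chromatin. A peak belonged to a locus when it met the gene body or the 100 kb to either side of it, with genes as annotated by GENCODE vM1 on the mouse genome build mm9. This gave 24 of the 32527 peaks of the deposited list, with 14 around Gm266, 5 around Dennd2d and 5 around Lgmn.

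Beko is a mouse progenitor T-cell leukemia line in which the Notch pathway is always active. The 6 libraries came from this 1 line, 3 given DAPT, an inhibitor of γ-secretase (GSI), over 24 h and 3 given only the solvent DMSO over 24 h. The methods of the study give the GSI dose as 10 µg/ml, whereas the labels of the samples write 10 mg/ml. The authors merged the peaks of both treatments into 1 list that keeps peaks found in at least 3 of the 6 libraries, so GSI against DMSO was not analysed here, no value had a replicate error, and every comparison below is a description without a test.

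RBPJ is the DNA-binding factor of the Notch pathway. Ligand binding leads γ-secretase to release the Notch intracellular domain, which enters the nucleus and forms a coactivator complex with RBPJ and Mastermind on target genes. Without this domain RBPJ can recruit corepressors, and some Notch-responsive elements hold a head-to-head pair of RBPJ motifs on which complexes form a dimer. In T-cell progenitors Notch signaling directs cells into the T lineage, and its constant activity is a common feature of T-cell leukemia.

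The study calls an RBPJ site dynamic when binding falls after GSI treatment and static when it does not. It shows Gm266 and Dennd2d with dynamic sites, whereas Lgmn is its example of a static site, so the 3 loci do not form 1 dynamic group and are described separately. As a check of the cell type, 8 of the 9 matched T-lineage genes had a peak within 1 kb of a start site (Cd3e, Cd3g, Lck, Thy1, Rag1, Bcl11b, Tcf7 and Notch1, but not Cd3d), 1 more listed gene, Ptcra, was not matched, and 0 of 5 B-lineage and 0 of 5 myeloid genes had one. Over all 22380 protein-coding genes the share with such a peak was 46.9%.

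The sequences that carry the RBPJ motifs at the 3 loci were read from the mm9 genome and are given 5′ to 3′. The first comparison shows the long form of the motif, CGTGGGAA in capitals, in 30 bases of the plus strand around each of its 3 occurrences in the 24 peaks. The first lies in the 5′ untranslated region of Lgmn (chr12:103677864-103677893), the second in the peak downstream of Gm266 (chr12:112713153-112713182) and the last before the start of Eif5, a neighbour of Gm266 (chr12:112775857-112775886).
Lgmn start peak: actgcagaacCGTGGGAAttccgggcgtcg
Gm266 downstream peak: ctgtctgactCGTGGGAAcagtcagtctca
Eif5 start peak: aggtttctatCGTGGGAAacctcagagcca
The 3 stretches shared the 8 bases of the word, while the flanks differed.

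Head-to-head arrangements were shown because the study describes dimeric RBPJ sites as pairs separated by 15 to 17 bases. The Dennd2d pair (chr3:106265273-106265299, plus strand) and the Gm266 pair (chr12:112713165-112713192, plus strand) are printed with both words in capitals, the right word reading on the minus strand.
Dennd2d upstream peak: TGGGAActtggtgcttgtgttTTCTCA
Gm266 downstream peak: TGGGAAcagtcagtctcatgggTTCACA
In Dennd2d the words were TGGGAA and TGAGAA with 15 bases between them. In Gm266 they were TGGGAA and TGTGAA with 16 bases between them. Each pair had 1 mismatch to a pair of TGGGAA, but the mismatched base in Gm266 was not the A that the study describes at the third base of the motif.

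The wider context of the Dennd2d pair (chr3:106265160-106265339, plus strand, both words in capitals) begins with the ChIP-qPCR amplicon that the study used at this locus.
Dennd2d upstream peak, 180 bases: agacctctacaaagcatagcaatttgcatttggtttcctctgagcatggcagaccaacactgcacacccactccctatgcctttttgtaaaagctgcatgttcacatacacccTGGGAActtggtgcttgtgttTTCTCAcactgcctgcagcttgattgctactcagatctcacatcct
The amplicon ended 45 bp before the pair and held no site of its own.

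The Gm266 downstream peak is shown on its gene strand, minus, as the stretch around the amplicon (chr12:112713008-112713201) and the stretch near its other end (chr12:112713728-112713808), with TGGGAA and TGAGAA on either strand in capitals.
Gm266 downstream peak, amplicon side: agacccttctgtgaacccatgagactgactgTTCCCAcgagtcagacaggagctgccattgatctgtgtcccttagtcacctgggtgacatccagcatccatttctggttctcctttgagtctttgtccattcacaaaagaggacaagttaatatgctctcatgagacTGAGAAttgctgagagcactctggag
Gm266 downstream peak, other side: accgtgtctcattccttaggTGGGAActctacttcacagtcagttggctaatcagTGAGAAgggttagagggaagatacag
Each stretch held 1 TGGGAA and 1 TGAGAA, so the 4 sites of this peak stood in separate groups to either side of its centre.

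The 2 peaks at the Gm266 start are shown on the minus strand (chr12:112724213-112724481 and chr12:112724705-112724992), with the same words in capitals.
Gm266 start peak: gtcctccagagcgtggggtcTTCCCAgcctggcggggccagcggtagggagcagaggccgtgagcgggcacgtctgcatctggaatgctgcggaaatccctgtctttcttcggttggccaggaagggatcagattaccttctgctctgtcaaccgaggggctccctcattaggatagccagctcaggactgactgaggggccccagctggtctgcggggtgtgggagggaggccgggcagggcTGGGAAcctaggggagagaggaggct
Gm266 upstream peak: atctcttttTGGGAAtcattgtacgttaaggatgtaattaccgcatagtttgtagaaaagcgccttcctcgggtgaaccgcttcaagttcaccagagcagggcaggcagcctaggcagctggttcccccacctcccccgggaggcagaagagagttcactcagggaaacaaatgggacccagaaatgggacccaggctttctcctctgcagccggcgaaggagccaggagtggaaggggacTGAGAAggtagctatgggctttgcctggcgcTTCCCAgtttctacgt
Both peaks held TGGGAA once on each strand.

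The remaining stretches show the other sites near Dennd2d and Lgmn, first the far upstream peak of Dennd2d (chr3:106251705-106251859, plus strand) and then the DNA before the Lgmn start (chr12:103678126-103678227, minus strand).
Dennd2d far upstream peak: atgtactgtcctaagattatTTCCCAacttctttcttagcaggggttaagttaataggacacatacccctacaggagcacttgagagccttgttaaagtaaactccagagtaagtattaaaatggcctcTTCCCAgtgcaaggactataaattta
Lgmn start peak, before the start: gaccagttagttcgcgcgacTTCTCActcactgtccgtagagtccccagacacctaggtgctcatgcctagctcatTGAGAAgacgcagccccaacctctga
The Dennd2d stretch held 2 TGGGAA sites on the same strand, and the Lgmn stretch held 2 TGAGAA sites on opposite strands.

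The loci differed in how many peaks surrounded the gene. The Gm266 window of 201 kb held 14 peaks, or 69.6 per Mb, which was at percentile 87.9 of the windows of all 22380 protein-coding genes by number and at percentile 93.2 by number per Mb. The Dennd2d window of 221 kb held 5 peaks, or 22.7 per Mb. The Lgmn window of 246 kb held 5 peaks as well, or 20.3 per Mb. Both of these lay near the middle of all coding genes, whose windows held a median of 5 peaks and 23.5 peaks per Mb, with quartiles of 1 and 10 peaks. Peaks covered 4.22% of the Gm266 window, 1.94% of the Dennd2d window and 1.54% of the Lgmn window.

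**Figure D1:**
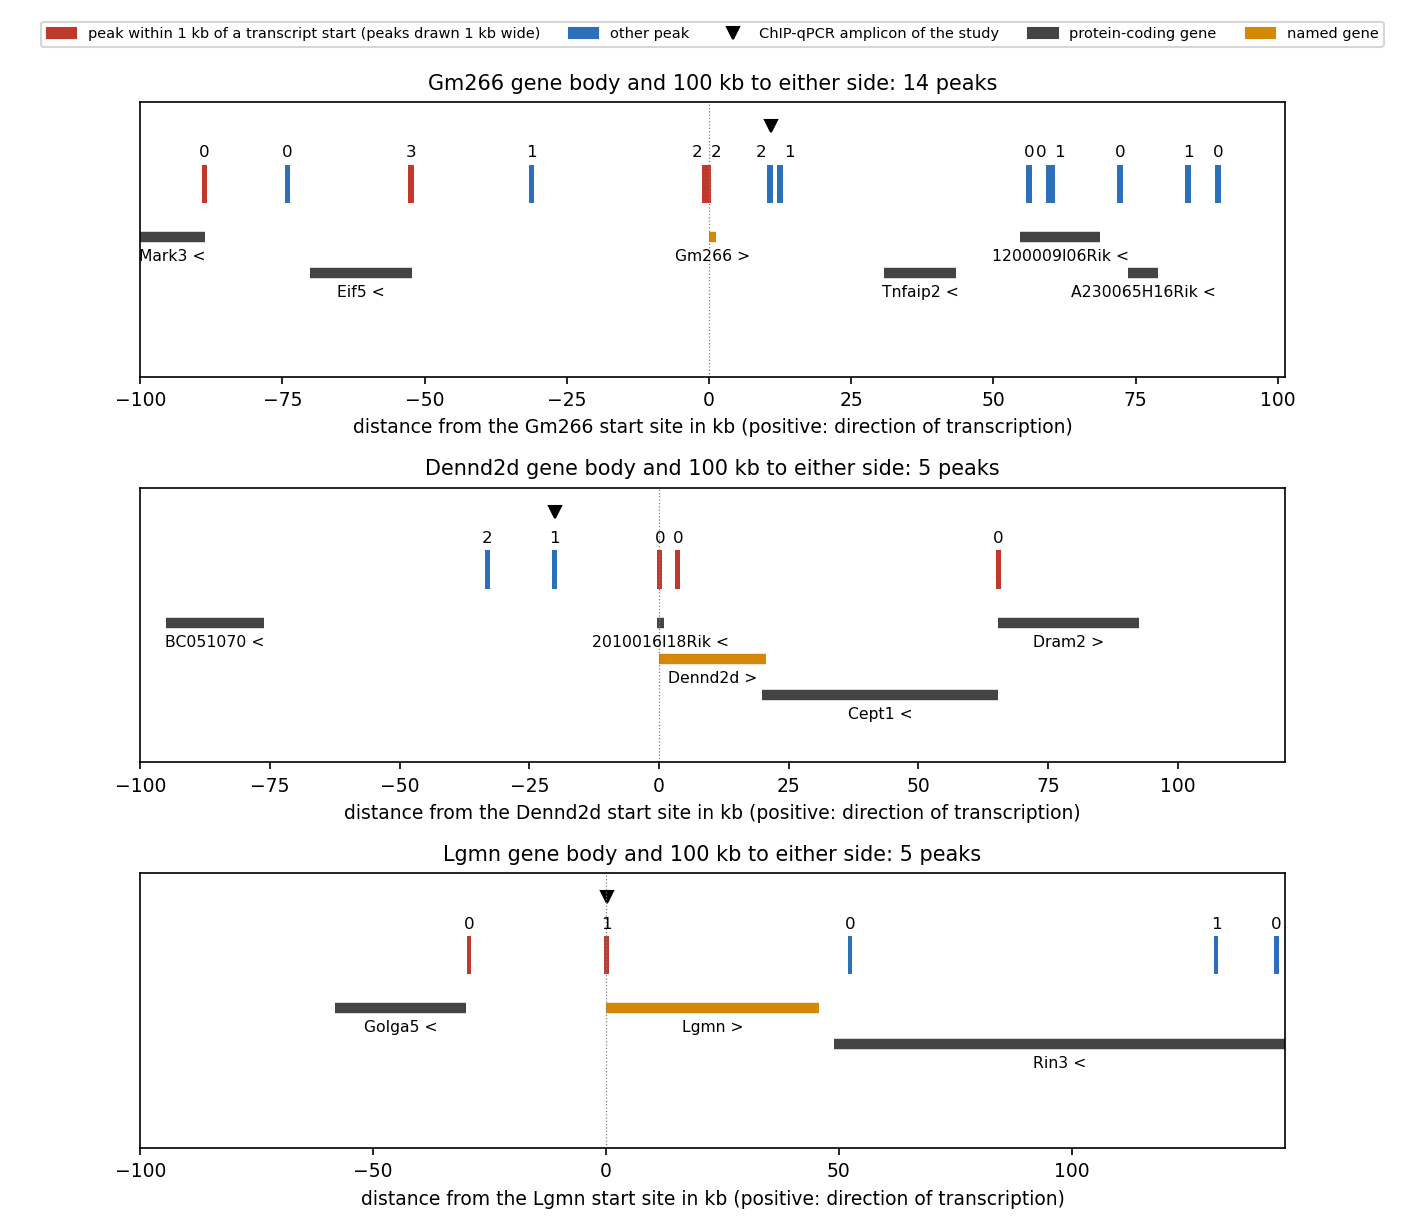
Maps of the Gm266, Dennd2d and Lgmn windows, with the distance from the start of the named gene in kb on the x axis and positive values in the direction of transcription. Bars stand for the 14, 5 and 5 peaks (red within 1 kb of a transcript start, blue elsewhere, drawn at a fixed width), the number above each is its count of TGGGAA sites, triangles mark the ChIP-qPCR amplicons, and the gene bars show that most peaks around Gm266 lie near other genes or between genes.

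Gm266 (ENSMUSG00000010529.5) is annotated on the minus strand at chr12:112722822-112724034, a gene of 1213 bp with 1 transcript. The peak over its start (chr12:112723751-112724492) was 742 bp wide, had a GC content of 69.5% and was rich in CpG. A second peak (chr12:112724679-112725021) followed 186 bp further upstream, was 343 bp wide and lay 645 bp from the start. It was narrower than most peaks of the list (percentile 9.03) and had 5.83 TGGGAA sites per kb, the highest value of the 24 peaks. These were the only peaks of the 14 that fell to Gm266 and to no other gene under the assignment rule used here, in which each coding gene owns the DNA from 5 kb before to 1 kb after its start and extends to the next such region by at most 1 Mb.

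Downstream of Gm266 lay a pair of distal peaks. The nearer one (chr12:112712814-112713818) was 1005 bp wide, at percentile 85.6 of the list, and its centre lay 10.7 kb from the start. The study's ChIP-qPCR amplicon at this locus (chr12:112713117-112713181, 65 bp) was inside this peak, at -167 bp from its centre along the plus strand. It covered the CGTGGGAA site and the first 17 bases of the pair printed above. Its centre lay 10885 bp from the GENCODE vM1 start of Gm266, whereas the study's primer name states a larger distance. Positions at Gm266 are thus relative to the GENCODE vM1 start. The other distal peak (chr12:112711146-112711840) followed after 973 bp, was 695 bp wide and had 1 TGGGAA and 2 TGAGAA sites. Both peaks fell to Gm266 and also to Tnfaip2, a gene induced by tumor necrosis factor.

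The other 10 peaks of the Gm266 window lay around neighbouring genes or between them. Farther along in the direction of Gm266 transcription, after a stretch of 43085 bp without a peak, 3 peaks lay in the body of 1200009I06Rik (Exoc3l4 in RefSeq) at 56.2, 59.7 and 60.3 kb, the last 2 separated by 76 bp. Another 3 were intergenic at 72.3, 84.2 and 89.5 kb and fell to 1200009I06Rik, A230065H16Rik (Lbhd2 in RefSeq) or the kinase gene Cdc42bpb. On the upstream side an intergenic peak (chr12:112754966-112755409) at -31.2 kb was shared by Gm266 and Eif5, which encodes a translation initiation factor. It was the only one of these 10 that fell to Gm266, and the nearest coding start was that of Eif5 (20903 bp).

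The widest peak of the Gm266 window lay over the Eif5 start (chr12:112775738-112777043, 1306 bp). It was at percentile 95.3 of the list by width, had a GC content of 71.3% and held 3 TGGGAA sites, more than any other of the 24 peaks, all of them on the same strand. In the whole list 2.95% of peaks held at least 3. Beyond it, 1 peak at -74.1 kb fell between Eif5 and Mark3, and the last (chr12:112812331-112813049) covered the starts of Mark3, a microtubule affinity-regulating kinase gene, and of the noncoding RNA 2810029C07Rik.

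Dennd2d (ENSMUSG00000027901.5) encodes a DENN-domain protein of a family that activates Rab GTPases and lies on the plus strand at chr3:106285323-106305948. All of its 4 distinct annotated start sites lay in a peak. The peak over the gene start (chr3:106285180-106285757) was 578 bp wide, had a GC content of 66.4% and held 4 GGGCGG words but neither form of the RBPJ motif. It overlapped 2010016I18Rik on the opposite strand, which is coding in GENCODE vM1 and a noncoding RNA in RefSeq. The next peak (chr3:106288716-106289163, 448 bp) lay 3.62 kb into the gene, in an intron of the longest form and over the start of a shorter one, with 1 TGAGAA site. By the assignment rule it fell to 2010016I18Rik alone. The rule uses 1 start per gene, takes 2010016I18Rik as coding, and the peak lies in the 5 kb before its start. The assignment without 2010016I18Rik was not computed.

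Upstream of Dennd2d lay 2 wide intergenic peaks. The nearer one (chr3:106264732-106265644) was 913 bp wide, with its centre at -20.1 kb from the start. The study's amplicon (chr3:106265160-106265228, 69 bp) lay inside it with its centre 6 bp from that of the peak, and the head-to-head pair began at -20050 bp from the gene start. The far peak (chr3:106251556-106252874) was 1319 bp wide, at percentile 95.6 of the list, and at 42.0% had the lowest GC content of the 24 peaks. Its observed to expected CpG ratio of 0.09 was also the lowest. Both peaks were shared with BC051070, whose start lay 42456 bp from the nearest peak, while the nearer one fell to Dennd2d alone when genes were extended by at most 50 kb.

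The last peak of the Dennd2d window (chr3:106350183-106351201, 1019 bp) lay 65.4 kb from the gene start. It covered the divergent starts of Cept1, a phospholipid-synthesising phosphotransferase, and Dram2, a gene linked to autophagy. It held no TGGGAA or TGAGAA.

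Lgmn (ENSMUSG00000021190.8) encodes legumain, a lysosomal asparaginyl endopeptidase, and lies on the minus strand at chr12:103632294-103678023. The peak over its start (chr12:103677666-103678303) was 638 bp wide, had a GC content of 59.7% and was the only peak in the gene body of 45730 bp. It fell to Lgmn alone. The study's amplicon (chr12:103677865-103677965, 101 bp) lay inside it, in the 5′ untranslated region, and covered the CGTGGGAA site 144 bp past the start. The peak also held 2 TGAGAA sites at -126 and -182 bp from the start and 4 GGGCGG words. Of the 3 distinct Lgmn start sites 1 lay in a peak.

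The other 4 peaks of the Lgmn window lay at or in neighbouring genes. The peak at -29.4 kb (chr12:103706975-103707791, 817 bp) lay 329 bp from the start of Golga5, a golgin gene, and had 6 GGGCGG words but no RBPJ motif. The remaining 3 lay in introns of Rin3, which encodes an exchange factor of Rab5, at 52.4, 131 and 144 kb. One of these was the widest of the 24 (chr12:103546280-103547659, 1380 bp, percentile 96.6), and another the narrowest (chr12:103625488-103625788, 301 bp, percentile 3.12). All 3 fell to Lgmn as well as Rin3 under the rule with extension by 1 Mb.

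How far the peaks could be shared between genes differed by locus. In total 12 of the 24 peaks fell to the gene that names their window, and 3 of these fell to it alone, the 2 peaks at the Gm266 start and that at the Lgmn start. Gm266 received 5 of 14, Dennd2d 3 of 5 and Lgmn 4 of 5. When each peak went only to the nearest coding start, Gm266 received 4, Dennd2d 3 and Lgmn 2. With genes extended by at most 50 kb, Gm266 received 5, Dennd2d 3 and Lgmn 1, which was the peak over its start. Of the 13 coding genes that start inside the windows, 9 had a peak within 1 kb of a start, beside 46.9% of all coding genes. The other 4 were A230065H16Rik, 1200009I06Rik and Tnfaip2 near Gm266 and BC051070 near Dennd2d, and the Tnfaip2 start lay 12620 bp from the nearest peak.

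Of the outermost peaks, that of the Lgmn window in Rin3 lay closest to an edge. It was 927 bp inside, and the next peak of the list lay 10652 bp outside it, was 721 bp wide and held no TGGGAA. On the other side of Lgmn the next peak was 10762 bp outside. For Gm266 the outermost peaks lay 11490 and 10985 bp inside, and the next ones 17227 and 82486 bp outside. For Dennd2d they lay 66233 and 54747 bp inside, and 481321 and 81705 bp outside.

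**Figure D2:**
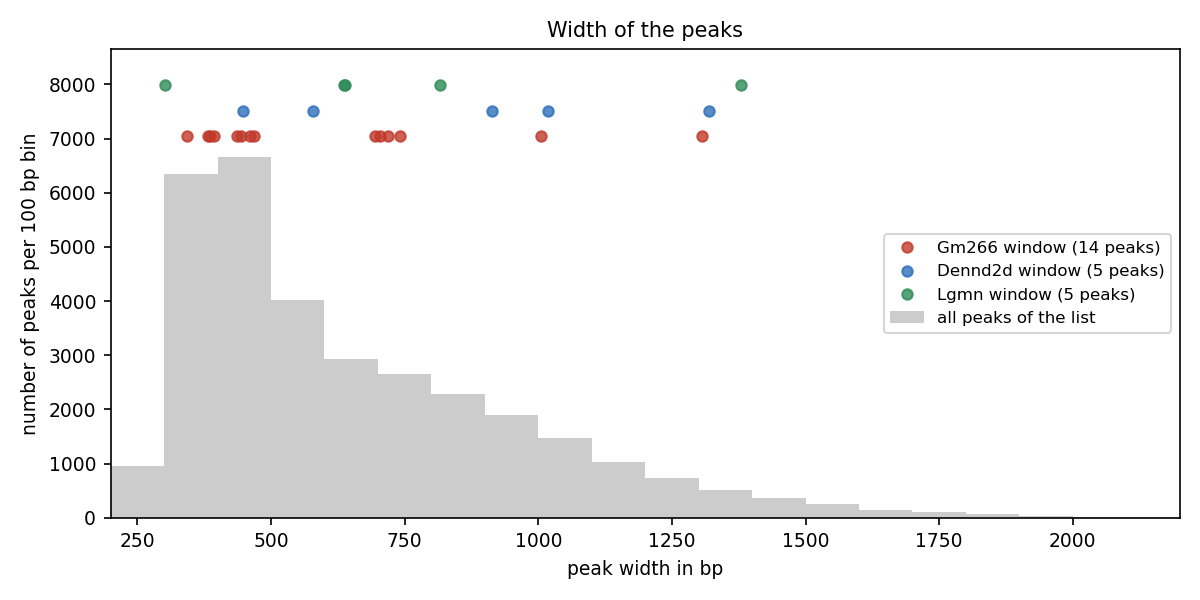
Peak width in bp on the x axis, with grey bars for the number of peaks of the whole list per bin of 100 bp and points for the 14 peaks of the Gm266, 5 of the Dennd2d and 5 of the Lgmn window, whose height has no meaning. The points run from 301 to 1380 bp, and the few peaks of the list that are wider than the axis are not drawn.

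The 24 peaks ranged from 301 to 1380 bp in width. Their median was 637 bp and that of the whole list 551 bp. The median was 464 bp at Gm266 (343 to 1306 bp), 913 bp at Dennd2d (448 to 1319 bp) and 638 bp at Lgmn (301 to 1380 bp). Peaks wider than 1 kb numbered 5 of 24, of which 2 lay at a start, while 14.7% of all peaks were that wide. Within 1 kb of a transcript start lay 9 of the 24 peaks (4 at Gm266, 3 at Dennd2d and 2 at Lgmn), beside 35.4% of the list.

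The RBPJ motif TGGGAA was searched on both strands, and it is contained in CGTGGGAA. It was present in 12 of the 24 peaks, and in 42.5% of all peaks. By locus it was in 8 of 14 peaks at Gm266, 2 of 5 at Dennd2d and 2 of 5 at Lgmn. With TGAGAA accepted too, 13 of 24 peaks held a site, beside 62.5% of the list, because most TGAGAA sites lay in peaks that also held TGGGAA. The peak in the Dennd2d intron was the exception. Peaks at a start held TGGGAA in 4 of 9 cases (48.4% of such peaks in the list) and distal peaks in 8 of 15 (39.2%).

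Corrected for width, the values of the 3 loci lay on both sides of that of the list. They rested on few sites, and their differences from the list and from each other were not tested. The Gm266 window had 13 TGGGAA sites in 8486 bp of peak, or 1.53 per kb, and 3 of these sites lay at the Eif5 start. Dennd2d had 3 sites and 0.701 per kb, and Lgmn 2 sites and 0.530 per kb. Over all peaks the density was 0.893 per kb. The sites at Gm266 lay mostly off the peak centres. Within the central 200 bp of each peak the density of this window was 0.714 per kb, beside 0.837 in the list. This value rested on the sites of only 2 peaks, neither of which fell to Gm266. At Dennd2d the central density was 1.0 per kb, above that of the list, but it rested on 1 site. At Lgmn no site fell into the central 200 bp.

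**Figure D3:**
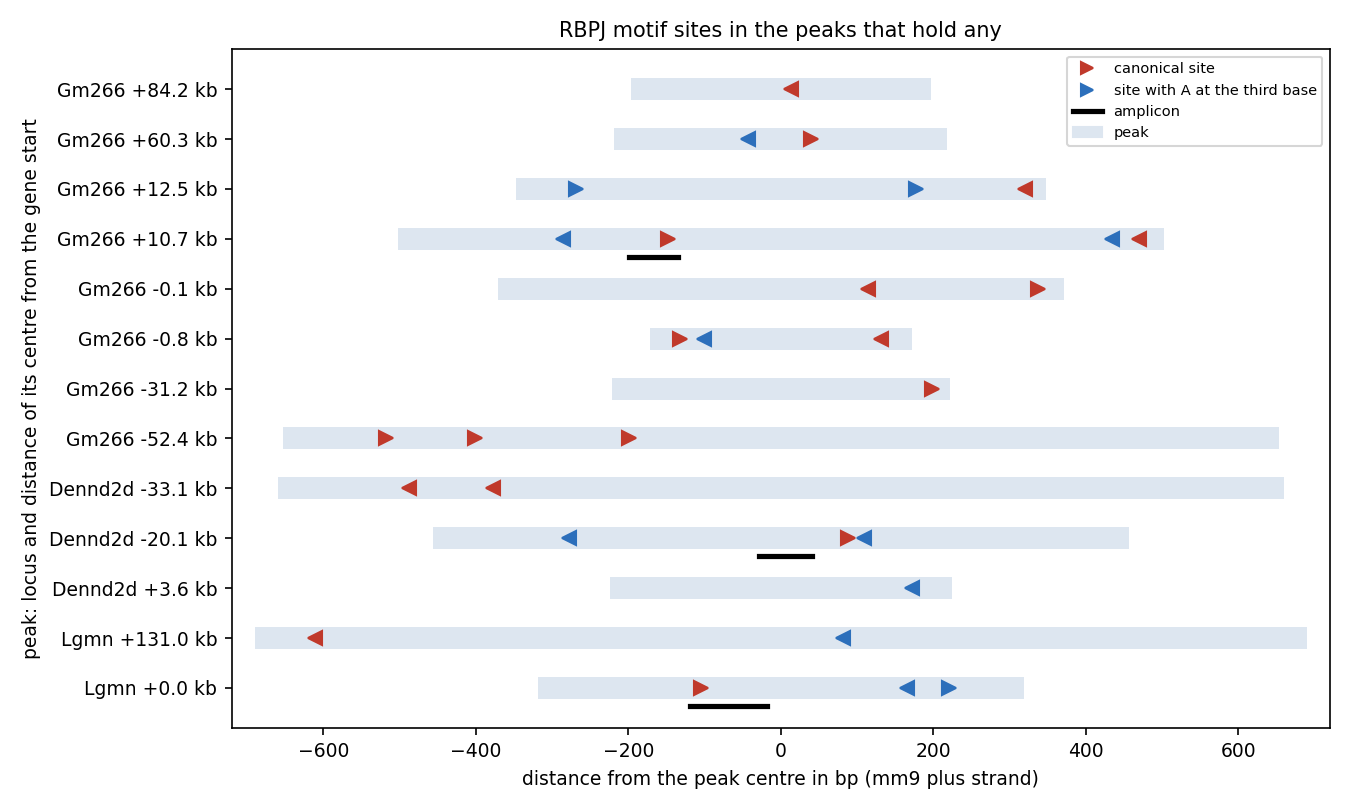
Each row is 1 of the 13 peaks that hold an RBPJ motif, with the distance from the peak centre in bp on the x axis and the strand shown by the direction of the arrowhead. Red arrowheads stand for TGGGAA, blue ones for TGAGAA and black lines for the amplicons, and the close opposing pair in the Dennd2d peak at -20.1 kb has its words 88 and 109 bp from the centre.

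The long form CGTGGGAA was rarer. It occurred in 3 of the 24 peaks and in 1.94% of the list, with 3.30% of peaks at a start and 1.20% of distal peaks. The 3 occurrences were those printed above, at Lgmn, in the Gm266 downstream peak and at Eif5, and Dennd2d had none. The amplicons at Gm266 and Lgmn thus both covered a CGTGGGAA, although the study classes those sites differently, whereas the Dennd2d amplicon covered none.

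A head-to-head pair of TGGGAA or TGAGAA with 15 to 17 bases between the words was found in 1 of the 24 peaks, the Dennd2d peak at -20.1 kb. In the list 0.178% of peaks had one, with 0.182% at starts and 0.176% elsewhere. With at most 1 mismatch to TGGGAA in the pair together, the Gm266 downstream peak was added, and 0.879% of the list passed. The words of this peak, TGGGAA with TGTGAA, were counted after they were seen, and any 1 combination is rarer than the whole rule. At this spacing they occurred in 0.0615% of the list, or 20 peaks. One of these was a Hes1 peak (chr16:30065027-30065579), with 16 bases between the words. They lay 876 bp past the outermost annotated start of this Notch target gene, which encodes a transcriptional repressor. Their distance from any other Hes1 start was not measured. Lgmn had no pair even with 2 mismatches, a rule that 10.5% of the list passed.

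Both pairs lay in peaks distal to a start, inside the same peak as the study's amplicon, and at the loci that the study shows as dynamic. The Gm266 pair was absent under the main rule of TGGGAA or TGAGAA. It passed only with mismatches allowed, and the rule of at most 1 mismatch was added after seeing the data. Of the other loci with dynamic sites, compared below, Hes1 had such a pair in 2 peaks, while Il2ra and Hey1 had none. Over its RBPJ sites in Beko cells, the study reports that dimeric motifs are more frequent at dynamic than at static sites. Whether pairs go with the dynamic class was not tested here. At Lgmn the amplicon lay in a peak over the start with no pair. With 1 amplicon per locus this is a description of 3 sites. The study chose them as examples of RBPJ binding, so shares of the whole list are no fair yardstick for these peaks.

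**Figure D4:**
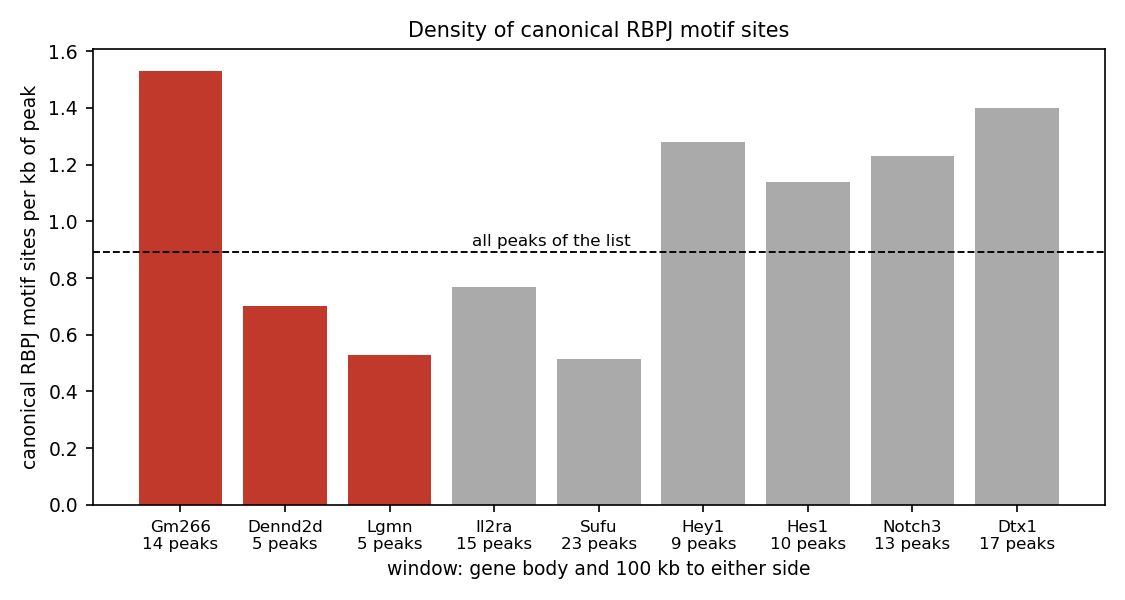
TGGGAA sites per kb of peak on the y axis for the windows of Gm266, Dennd2d and Lgmn (red) and of Il2ra, Sufu, Hey1, Hes1, Notch3 and Dtx1 (grey), with the value of 0.893 for all peaks as a dashed line. Gm266 has 1.53 sites per kb, while Dennd2d at 0.701 and Lgmn at 0.530 lie below the line.

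Among these loci, the others of which are further examples of RBPJ binding from the study, the Gm266 window had the highest density of TGGGAA. The nearest was Dtx1, a Notch target that encodes an E3 ligase, with 1.40 sites per kb in 17 peaks, followed by the Notch target Hey1 with 1.28, the receptor gene Notch3 with 1.23 and Hes1 with 1.14. Il2ra, the α chain of the interleukin 2 receptor, had 0.769. Sufu, a regulator of Hedgehog signaling, had 0.515 in 23 peaks, close to Lgmn. The study shows Dtx1, Notch3 and Sufu with static sites, and Hey1, Hes1 and Il2ra with both dynamic and static sites. The order by density did not follow this class, but these are unlike measures. The density covers all peaks of a window, also those near other genes, while the class belongs to single RBPJ sites. It therefore cannot bear on the class. In number of peaks Dennd2d and Lgmn, with 5 each, were below the 6 others, which held from 9 to 23. Pairs with at most 1 mismatch were found in 2 peaks of Hes1 and in none at the other 5. With up to 2 mismatches, the rule that 10.5% of the list passed, they were in 3 peaks each of Hes1 and Dtx1, in 1 each of Il2ra and Hey1, and in none of Sufu and Notch3.

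**Figure D5:**
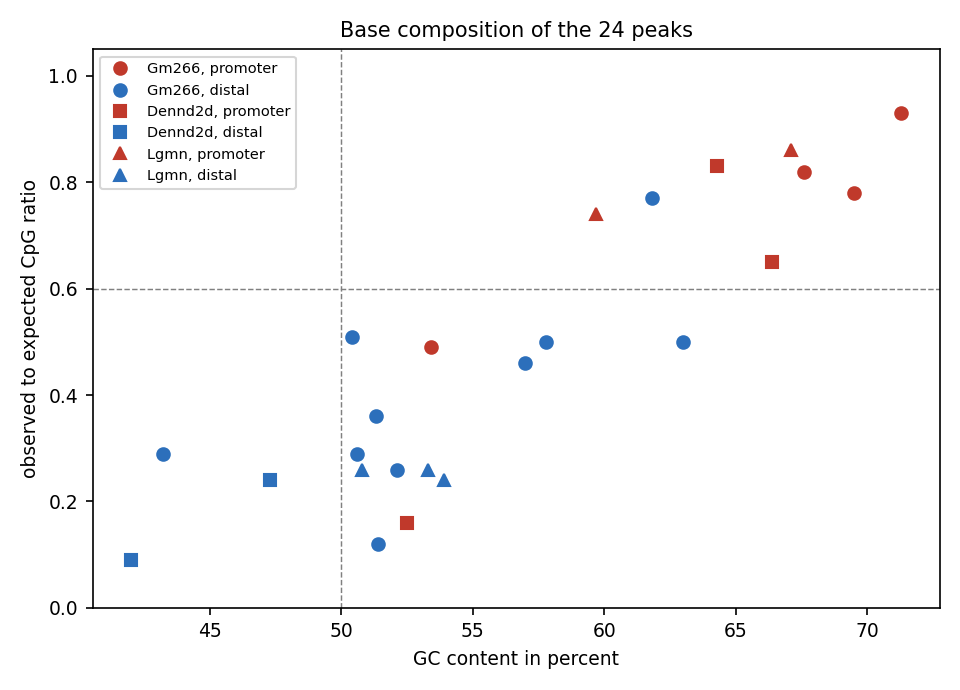
GC content in percent (x axis) and observed to expected CpG ratio (y axis) of the 24 peaks, red for peaks within 1 kb of a transcript start and blue for others, with dashed lines at 50% and 0.6. Of the 8 CpG-rich peaks at the upper right 7 lie at a start.

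Most peaks at starts were rich in CpG and most distal peaks were not. Peaks were counted as CpG-rich when their GC content reached 50% and their CpG ratio (observed over expected) reached 0.6, which held for 8 of the 24 peaks and 26.1% of the list. Of these, 7 lay at a start, and the exception was the exonic peak of 1200009I06Rik (61.8% GC, ratio 0.77). The 2 peaks at a start that were not CpG-rich were the upstream one of Gm266 (ratio 0.49) and that in the Dennd2d intron (ratio 0.16). The 3 peaks that held an amplicon differed, with a ratio of 0.12 at Gm266, 0.24 at Dennd2d and 0.74 at Lgmn. None of the 24 peaks aligned a second time to the genome, so they lay in sequence without a near-identical copy.

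Words of other factors that the study names or that are known in T cells were also counted in the 24 peaks, on both strands. GGGCGG, the core of the GC box bound by Sp1 family factors, was in 7 peaks, all of them within 1 kb of a start, and in 38.7% of the list (76.6% of peaks at a start and 17.9% of distal ones). Around Dennd2d and Lgmn it was in the peaks over both gene starts, with 4 words each, while at the Gm266 start there were 3. The Eif5 peak had 8.

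CAGCTG, an E-box of the kind bound by Tcf3 and related proteins, was in 11 of the 24 peaks, 8 of them distal, and in 42.7% of the list (40.5% at starts and 43.9% elsewhere). TGTGGT, the core bound by Runx factors, was in 13 peaks and in 41.4% of the list, with 5 of 14 peaks at Gm266, 4 of 5 at Dennd2d and 4 of 5 at Lgmn. A match describes letters only.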

How the data were processed

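ATAC-Seq was made from Beko cells in 6 libraries, grouped by treatment from the labels. As the methods of the study describe, the authors aligned reads to mm9 with HISAT2 (2.2.1 in the submitters' processing notes). They called peaks with MACS2 without an input, kept peaks present in 3 libraries and removed blacklisted regions. The methods name the replicate tool MSPC for ChIP-Seq and do not name it for ATAC-Seq. Keeping 1 alignment per read places reads from repeats at 1 of several equal sites. The deposited score is 0 for every peak, so only positions were used, and read depth per library was not used. The planned comparison of GSI with DMSO was not run. Labels do not say whether replicates were separate cultures.

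Coordinates are printed counted from 1. Sequences and annotation came from NCBIM37 (mm9) and GENCODE vM1, with other gene names from RefSeq on GRCm38.p6, where 15 of the 17 genes in the windows matched. A promoter peak lay within 1 kb of any transcript start. Primer pairs read from the supplement were matched exactly to mm9, each at 1 place within 1 Mb of its gene. Copies were searched with minimap2 2.31 (80% of the peak, 95% identity). Of 24 control peaks in the 5S array, 23 had a copy. Python 3.11.15, numpy 2.4.6, pysam 0.24.0 and matplotlib 3.10.9 were used, and the counting steps were tested on simulated data. The loci, lists and peaks named (those at a start or in the body of the 3 genes, with an amplicon or pair, the widest, and those with most TGGGAA) follow a rule chosen with earlier results of these data known. Peaks with other extremes were named after their values were seen. The alternatives were other windows, widths, motifs, start distances and assignment rules. A pair with at most 1 mismatch, and the count of TGGGAA with TGTGAA, were added after seeing the data.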

Additional observations from a re-analysis of the deposited data

How the results depend on the processing

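Of 54 alternative values at the 3 loci, 38 stayed near the value reported (counts within 1.5 times, densities within its 95% Poisson interval) and 16 moved further. These intervals are wide, since they rest on few sites. Accepting TGAGAA can only raise a density, so those values were set against the interval of an unlike measure. With TGAGAA accepted, the density was 2.24 sites per kb at Gm266, 1.40 at Dennd2d and 1.33 at Lgmn, beside 1.65 over the list. With a window of 50 kb, Gm266 had 5 peaks, 5 of them with TGGGAA, and Lgmn had 3 peaks, 1 with TGGGAA. With peaks of at least 500 bp only, Gm266 had 6 peaks, 4 with TGGGAA. In the central 200 bp of the peaks, TGGGAA was present in 2 peaks at Gm266 (0.714 sites per kb), 1 at Dennd2d and 0 at Lgmn (0.00 sites per kb), a construction that searches less sequence. With up to 2 mismatches, or at most 1, Gm266 had 1 head-to-head pair. With starts within 5 kb, Gm266 had 8 promoter peaks. Lgmn received 2 peaks by the nearest coding start and 1 with an extension of 50 kb. The peak counts of Dennd2d stayed within 1.5 times under every window and width tried.

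No paired analysis was possible because replicate values do not exist in a merged table of positions, and leaving out a library was likewise not run. A merged table says neither how accessible a peak was nor in which treatment it was found, and absence from it says only that a region did not pass in 3 libraries.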
